A study of Saccharomyces cerevisiae with 12 samples.

Results

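SNZ1 (YMR096W), SNO1 (YMR095C) and PDX3 (YBR035C) are 3 genes of vitamin B6 synthesis in budding yeast, Saccharomyces cerevisiae. They were picked by locus name from a deposited table in which 5585 features matched protein-coding genes. SNZ1 and SNO1 had been noticed for their rise in pup2-ts cells against WT cells, so their values against WT are given below as a description and without a test. PDX3 was added as the enzyme of the other route to the same cofactor. All 3 were among the 5560 genes that passed the filter on low counts.

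RNA of 12 cultures was sequenced, 4 each of pup2-ts, rpn5-ts and WT. The pup2-ts cells carried a temperature-sensitive allele of PUP2 marked with URA3 (pup2-ts::URA3), and Pup2 is an alpha subunit of the proteasome core particle. The rpn5-ts cells carried a temperature-sensitive allele of RPN5 marked the same way (rpn5-ts::URA3), and Rpn5 belongs to the lid of the regulatory particle. Both mutants also carried lys2Δ0 and can1Δ::LEU2-MFA1pr::His3, which the labels do not give for WT, so that each mutant differed from WT at more than the named allele. The labels give all 3 groups the mating type MATa and the markers his3Δ1, leu2Δ0, met15Δ0 and ura3Δ0. The names of WT replicates 3 and 4 also hold the strain name BY4741. RNA of MET17, the gene of met15Δ0, was nonetheless present in pup2-ts and in 1 rpn5-ts library and nearly absent from WT, as given below. Cells grew in rich YPD medium to an optical density of about 0.5, were not treated further, and no growth temperature is given in the labels. Nothing in the labels says whether the cultures of a mutant came from separate clones, so the p-values measure the spread between these cultures.

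Pyridoxal phosphate, the active form of vitamin B6, is a cofactor of aminotransferases, decarboxylases and many other enzymes of amino acid metabolism. Yeast makes it from scratch with a synthase in which Sno proteins release ammonia from glutamine and Snz proteins build the pyridine ring with it. Pdx3 oxidises pyridoxine phosphate and pyridoxamine phosphate to pyridoxal phosphate, and kinases and a transporter supply these forms from the medium. SNZ1 and SNO1 lie back to back, each with a pair of near relatives elsewhere in the genome (SNZ2 and SNZ3, SNO2 and SNO3). In yeast the SNZ1-SNO1 pair is known for expression near stationary phase and under amino acid starvation, and the other copies for expression when thiamine is short.

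SNO1 is read leftwards and SNZ1 rightwards on chromosome XIII. In the deposited table (build sacCer3) the SNO1 unit ran from 457284 to 457958 on the minus strand and the SNZ1 unit from 458379 to 459451 on the plus strand, and the PDX3 unit ran from 306170 to 306982 on the minus strand of chromosome II. In the RefSeq annotation of the same build (R64) the coding regions are 457285 to 457959, 458408 to 459301 and 306269 to 306955, each in 1 piece. The last 76 bases of the SNZ1 unit overlap MTG1 on the other strand. Between the start codons of SNO1 and SNZ1 lie 448 bases (457960 to 458407) that serve both genes as upstream region. A stretch of 300 of them is shown because they hold every copy of TGACTC, the core of the sites bound by Gcn4 and Bas1, found between the start codons. The stretch is chrXIII:458018-458317, plus strand, 5′ to 3′ towards SNZ1, with TGACTC in capitals.

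SNO1-SNZ1 upstream region: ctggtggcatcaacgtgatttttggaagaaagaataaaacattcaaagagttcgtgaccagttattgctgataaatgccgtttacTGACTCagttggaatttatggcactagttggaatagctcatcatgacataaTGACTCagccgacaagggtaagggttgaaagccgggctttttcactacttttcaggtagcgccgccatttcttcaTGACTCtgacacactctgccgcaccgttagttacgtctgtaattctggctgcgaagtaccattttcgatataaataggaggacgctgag

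TGACTC, searched on both strands, occurred 3 times, at 458103 to 458108, 458154 to 458159 and 458229 to 458234. These copies stand 144, 195 and 270 bases from the start codon of SNO1 and 299, 248 and 173 bases before that of SNZ1, and they do not overlap. In 448 bases before the start codon, 647 of 5585 genes (11.6%) had at least 1 copy and 9 genes (0.161%) had at least 3, SNO1 and SNZ1 being 2 of the 9 with the same copies. Of 23 established targets of Gcn4, 16 (69.6%) had at least 1. GGTGGCAAA, the element bound by Rpn4, was not found in full between the start codons, and it occurred in this window of 1.58% of genes. Only this exact form was searched. The shorter GGTGGCA stands near the left end of the printed stretch, and its share among genes was not counted. TTACTAA, a Yap1-type site, and AGGGG, the stress response element, were not found there either, against shares of 11.3% and 32.1% of genes. The 448 bases before PDX3 held 1 copy of AGGGG and none of the other 3 motifs, and those before SNZ2, SNZ3, SNO2 and SNO3 held none of the 4. The motifs were chosen with earlier results of these data known, and a match or its absence is a description of letters only.

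Counts in protein-coding genes totalled 18.5 to 60.6 in units of 1e6 a library, and levels are CPM (counts per 1e6 counts) scaled with TMM factors. Replicates 3 and 4 of each group carry the word DNAse in their names and replicates 1 and 2 do not, and 3511 of 5560 genes (63.1%) differed between these sets. Of the markers read, LYS2 and MET17 went against the labels in some libraries, and LEU2 was not analysed here. HIS3, labelled his3Δ1 in all groups, had reads in every library, at 88.7 to 118 CPM in pup2-ts and 67.4 to 105 CPM in rpn5-ts, against 36.5 to 77.6 CPM in WT. CAN1 was at 9.78 to 15.1 CPM in pup2-ts and 12.8 to 16.7 CPM in rpn5-ts, against 175 to 224 CPM in WT. LYS2 was at 213 CPM in the library labelled rpn5-ts replicate 1, where the labels give lys2Δ0, against 0.181 CPM or less in the other rpn5-ts libraries and 120 to 207 CPM in WT. MET17, the gene of met15Δ0, was at 249 CPM in that library and at 196 to 587 CPM in pup2-ts, against 0.0931 CPM or less in WT and 0.0906 CPM or less in the other rpn5-ts libraries. URA3, the marker of both alleles, was at 94 to 122 CPM in pup2-ts and 81.8 to 125 CPM in rpn5-ts, that library included, against 3.63 to 4.66 CPM in WT. PUP2 was at 220 to 264 CPM in pup2-ts and 368 to 496 CPM in rpn5-ts, against 179 to 218 CPM in WT. These ranges did not overlap, and the library labelled rpn5-ts replicate 1 was the highest, at 496 CPM. RPN5 was at 651 to 821 CPM in pup2-ts and 400 to 733 CPM in rpn5-ts, against 277 to 448 CPM in WT. The library labelled rpn5-ts replicate 1 was at 733 CPM for RPN5, within the pup2-ts range. Whether these levels tell which allele a library holds was not tested. Since LYS2 and MET17 went against the label of that library, SNZ1, SNO1 and PDX3 in rpn5-ts are shown with all 4 libraries and again without it. This holds for their mean CPM and fitted fold changes. Elsewhere that library is included unless the text says otherwise.

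SNZ1, the ring-building subunit, was several times higher in both mutants. In pup2-ts replicates 1 to 4 it stood at 82.9, 82.2, 302 and 314 CPM, in rpn5-ts at 56.3, 128, 122 and 153 CPM, and in WT at 46.2, 28.4, 31.6 and 32.5 CPM. Every mutant library lay above every WT library, and the lowest of them was the library labelled rpn5-ts replicate 1. The means were 195 ± 130 CPM in pup2-ts and 115 ± 41.1 CPM in rpn5-ts, against 34.7 ± 7.91 CPM in WT (SD, n = 4 each), which is 5.63 times and 3.31 times the WT mean. Without the library labelled rpn5-ts replicate 1, the rpn5-ts mean was 134 ± 16.5 CPM (SD, n = 3), or 3.87 times WT. The fitted log2 fold changes were 2.49 ± 0.48 in pup2-ts and 1.72 ± 0.47 in rpn5-ts (SE), and 1.95 ± 0.46 in rpn5-ts without that library. In RNA of whole cultures, more cells that express a gene and more RNA in each cell cannot be told apart.

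SNO1, the glutaminase subunit, was the lower of the pair in every library and differed from WT by a larger factor. It was at 7.73, 8.06, 17 and 19.4 CPM in pup2-ts replicates 1 to 4, at 4.3, 15.7, 8.47 and 10.6 CPM in rpn5-ts, and at 3, 1.26, 0.978 and 1.09 CPM in WT. Again no mutant library overlapped WT, and the nearest were the library labelled rpn5-ts replicate 1 and WT replicate 1. The WT values rest on 106, 36, 21 and 61 counts, against 206 to 488 counts in pup2-ts and 139 to 331 counts in rpn5-ts. The means were 13 ± 6.02 CPM in pup2-ts and 9.75 ± 4.73 CPM in rpn5-ts, against 1.58 ± 0.951 CPM in WT (SD, n = 4 each), 8.24 times and 6.16 times the WT mean. Without the library labelled rpn5-ts replicate 1, the rpn5-ts mean was 11.6 ± 3.7 CPM (SD, n = 3), or 7.31 times WT. The fitted log2 fold changes were 3.03 ± 0.51 in pup2-ts and 2.61 ± 0.50 in rpn5-ts (SE), and 2.86 ± 0.47 in rpn5-ts without that library. Without WT replicate 1, they were 3.56 in pup2-ts and 3.14 in rpn5-ts for SNO1, and 2.69 and 1.92 for SNZ1. Several stress genes were also high in WT replicate 1, as given below, and their part in these values was not tested.

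PDX3, the oxidase of the salvage route, differed far less. Its levels were 114, 128, 120 and 118 CPM in pup2-ts, 136, 132, 119 and 115 CPM in rpn5-ts, and 71.1, 92.2, 105 and 108 CPM in WT. The groups did not overlap, but WT replicates 3 and 4 stood only just under the lowest mutant libraries. The means were 120 ± 5.74 CPM in pup2-ts and 125 ± 9.95 CPM in rpn5-ts, against 94.1 ± 16.8 CPM in WT (SD, n = 4 each), 1.28 times and 1.33 times the WT mean. The fitted log2 fold changes were 0.35 ± 0.13 and 0.41 ± 0.13 (SE). Without the library labelled rpn5-ts replicate 1, the rpn5-ts mean was 122 ± 8.92 CPM (SD, n = 3), or 1.3 times WT. The fitted log2 fold change in rpn5-ts was then 0.38 ± 0.14 (SE). All 3 genes were thus higher than WT without overlap in both mutants. Of the 5560 genes, 12.1% were higher without overlap in pup2-ts and 11.1% in rpn5-ts, or 16.5% in rpn5-ts replicates 2 to 4. SNZ1 and SNO1 were chosen on such values and PDX3 was added with earlier results known, so nothing is read from the count.

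**Figure D1:**
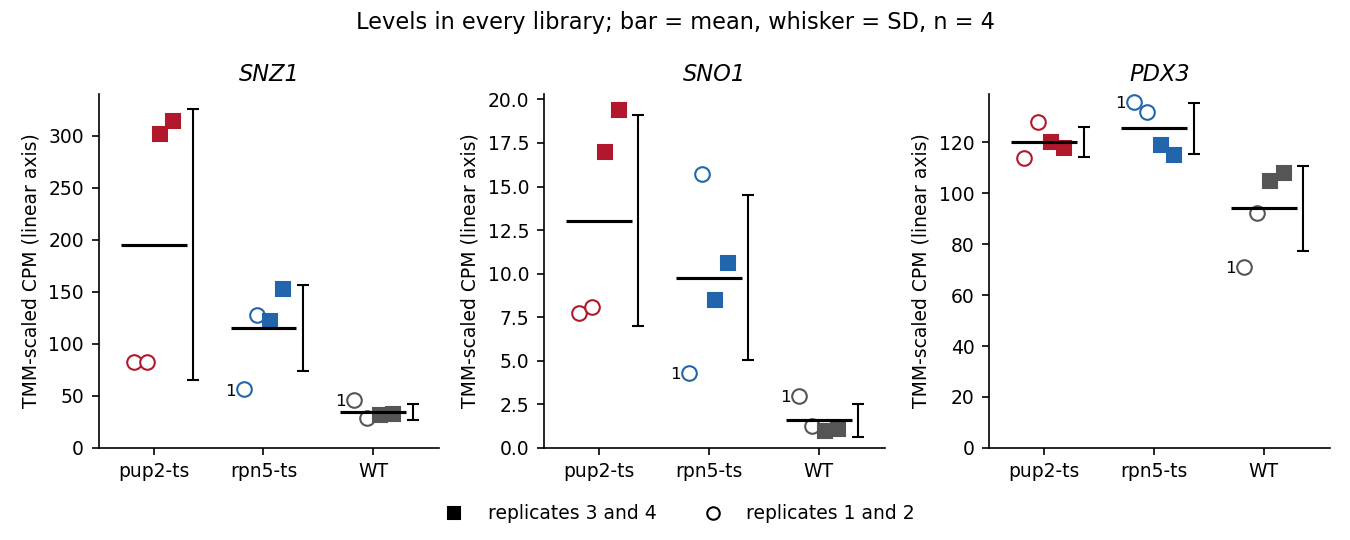
TMM-scaled CPM of SNZ1, SNO1 and PDX3 (linear axes from 0) in every library of pup2-ts, rpn5-ts and WT, with a bar at the mean and a whisker of 1 SD (n = 4); marker shapes separate replicates 3 and 4 from replicates 1 and 2. In pup2-ts the SNZ1 and SNO1 libraries form an upper pair of replicates 3 and 4 and a lower pair of replicates 1 and 2, while PDX3 runs from 114 to 128 CPM.

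The set of replicates moved with the size of the difference. In replicates 3 and 4 the mean of SNZ1 in pup2-ts was 9.61 times that of WT, and in replicates 1 and 2 it was 2.21 times. For SNO1 in pup2-ts the ratios were 17.6 in replicates 3 and 4 and 3.71 in replicates 1 and 2. In rpn5-ts the ratios in replicates 3 and 4 were 4.29 for SNZ1 and 9.2 for SNO1, and in replicates 1 and 2 they were 2.47 and 4.69. Fitted within sets, the log2 fold changes of SNZ1 were 3.27 ± 0.10 (replicates 3 and 4) and 1.15 ± 0.43 (replicates 1 and 2) in pup2-ts, and those of SNO1 were 4.10 ± 0.17 and 1.88 ± 0.69 for the same sets. Both sets put SNZ1 and SNO1 above WT in both mutants, and PDX3 too. For PDX3 the order of the sets was turned round, at 0.17 ± 0.06 in replicates 3 and 4 and 0.57 ± 0.14 in replicates 1 and 2 of pup2-ts, and at 0.15 ± 0.06 and 0.74 ± 0.14 in rpn5-ts.

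**Figure D2:**
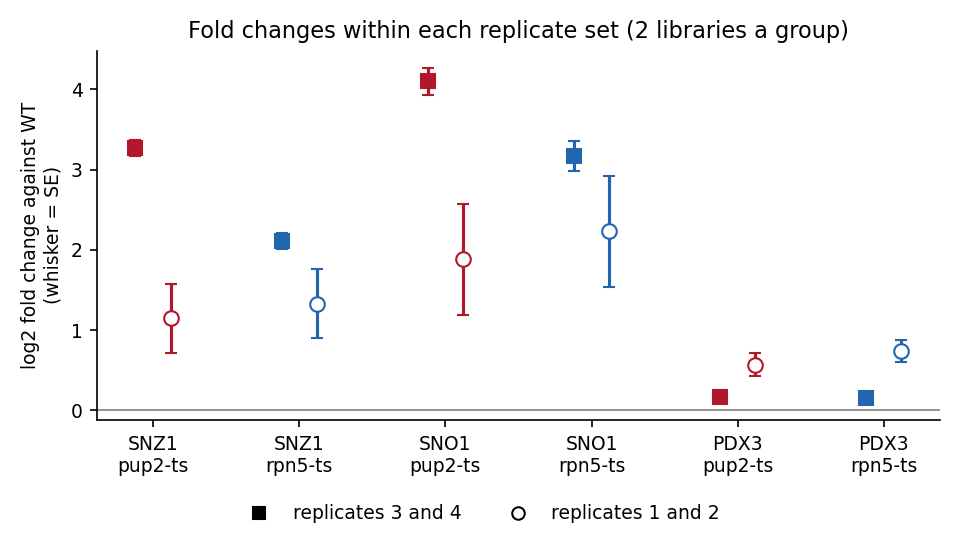
Fitted log2 fold change against WT of SNZ1, SNO1 and PDX3 in pup2-ts and rpn5-ts, fitted within each replicate set (2 libraries a group); filled squares are replicates 3 and 4, open symbols replicates 1 and 2, and whiskers are SE. For SNZ1 in pup2-ts the sets stand at 3.27 and 1.15, and for PDX3 all 4 values lie between 0.15 and 0.74.

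The difference between the sets is another contrast than the one that drew attention to the genes, but it rests on the same libraries and was looked at with earlier results known, so its p-values are not independent of the choice of genes and describe these libraries. It was computed with edgeR's quasi-likelihood test in a fit of all genes, with Benjamini-Hochberg adjustment over all 5560. The log2 effect of pup2-ts on SNZ1 was larger by 2.12 ± 0.50 (SE) in replicates 3 and 4 than in replicates 1 and 2 (adjusted p = 0.0358), where 9.41% of all genes passed this test and 5.94% passed it in this direction. The call hung on single libraries. The adjusted p was 0.102 to 0.123 without any 1 of the 4 pup2-ts libraries, 0.0547 and 0.0606 without rpn5-ts replicate 3 or 4, 0.118, 0.103 and 0.0917 without WT replicate 1, 3 or 4, and 0.00413 on leaving out the library labelled rpn5-ts replicate 1. The difference itself stayed between 1.74 and 2.43 over these. For SNO1 the estimate was about as large, 2.25 ± 0.82, but did not pass (adjusted p = 0.112). It passed with DESeq2 (2.26, adjusted p = 0.0146) and on leaving out either rpn5-ts replicate 2 (adjusted p = 0.0124) or the library labelled rpn5-ts replicate 1 (0.0121 as adjusted p). PDX3 had a difference of -0.41 ± 0.16 (adjusted p = 0.115). It was -0.61 without WT replicate 2, which leaves WT replicate 1 alone in its set.

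In rpn5-ts the same test called none of the 3, against 1.67% of all genes. The differences between the sets were 0.80 ± 0.49 for SNZ1 (adjusted p = 0.364), 1.0 ± 0.82 for SNO1 (adjusted p = 0.494) and -0.58 ± 0.16 for PDX3 (adjusted p = 0.0879). Without rpn5-ts replicate 2 the differences were 1.46 for SNZ1, 2.14 for SNO1 and -0.64 for PDX3. Replicates 1 and 2 of rpn5-ts then rest on the library labelled rpn5-ts replicate 1 alone, whose LYS2 and MET17 levels go against its label. Without that library, which leaves rpn5-ts replicate 2 alone, SNZ1 was at 0.32 and SNO1 at 0.32. The 2 libraries of this set thus pull the estimate opposite ways. PDX3 was at -0.78 without WT replicate 2, which leaves WT replicate 1 alone in its set. With DESeq2 PDX3 passed (-0.61, adjusted p = 0.0146). Averaged over the groups, replicates 3 and 4 differed from replicates 1 and 2 by 0.76 ± 0.35 for SNZ1 (adjusted p = 0.083), 0.15 ± 0.41 for SNO1 (adjusted p = 0.768) and 0.05 ± 0.09 for PDX3 (adjusted p = 0.625), where 63.1% of all genes passed. SNZ1 passed that test without rpn5-ts replicate 2 (1.0, adjusted p = 0.0341) and without WT replicate 1 (0.99, adjusted p = 0.0233).

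Between the mutants, the fitted difference of rpn5-ts minus pup2-ts was -0.77 ± 0.46 for SNZ1, -0.42 ± 0.46 for SNO1 and 0.06 for PDX3 on the log2 scale (SE). Within replicates 1 and 2 alone the first pair of differences was 0.18 and 0.35, so SNZ1 and SNO1 were lower in rpn5-ts in replicates 3 and 4 only. The size of the fitted difference also depended on the library labelled rpn5-ts replicate 1, the lowest mutant library for both genes. Without it the differences were -0.54 ± 0.47 for SNZ1 and -0.17 ± 0.45 for SNO1. Between these mutants 0.036% of all genes passed the test. No member is read against it, since SNZ1 and SNO1 were noticed in the pup2-ts libraries and PDX3 was added with earlier results known.

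Per kilobase of unit, SNZ1 was the higher of the divergent pair by a factor that was larger in WT. SNZ1 averaged 182 ± 121 CPM per kb in pup2-ts and 107 ± 38.2 in rpn5-ts, against 32.3 ± 7.39 in WT (SD, n = 4 each). SNO1 averaged 19.3 ± 8.92 CPM per kb in pup2-ts and 14.4 ± 7.01 in rpn5-ts, against 2.35 ± 1.41 in WT. PDX3, at 148 ± 6.7 CPM per kb in pup2-ts, 154 ± 12.5 in rpn5-ts and 116 ± 20.7 in WT, was the highest of the 3 in WT and in rpn5-ts, while in pup2-ts SNZ1 spread from 76.6 to 292 around it. The SNO1 unit covers the coding length only, 675 bases, and the SNZ1 and PDX3 units reach beyond it.

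The ratio of SNZ1 to SNO1, per kilobase, was 6.74, 6.42, 11.2 and 10.2 in pup2-ts replicates 1 to 4, 8.23, 5.13, 9.04 and 9.09 in rpn5-ts, and 9.7, 14.1, 20.3 and 18.7 in WT. WT replicate 1 overlapped the pup2-ts values, and the other WT libraries were above all mutant libraries. The means were 8.64 ± 2.42 in pup2-ts and 7.87 ± 1.87 in rpn5-ts, against 15.7 ± 4.79 in WT (SD, n = 4 each). In each group replicates 3 and 4 had higher ratios than replicates 1 and 2.

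**Figure D3:**
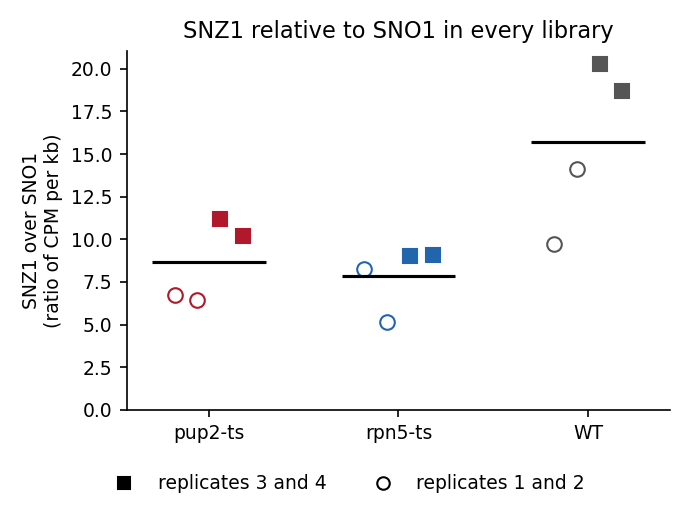
Ratio of SNZ1 to SNO1 in CPM per kb (linear axis from 0) in every library of pup2-ts, rpn5-ts and WT; marker shapes separate replicates 3 and 4 from replicates 1 and 2. Mutant libraries lie between 5.13 and 11.2, and 3 of the 4 WT libraries lie above them at 14.1 to 20.3.

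Other units of the table cover the same ground. NUT1303 spans SNO1 on its strand, and AS_Unit6308 and MAN_Unit293 reach into SNZ1 on its strand, so they may share those reads. In a fit of all annotated features their log2 fold changes were 3.06, 2.10 and 1.89 in pup2-ts and 2.48, 1.37 and 1.22 in rpn5-ts. SRT521 (456989 to 457181, minus strand), past the end of the SNO1 unit, averaged 1.33 CPM in pup2-ts and 0.86 CPM in rpn5-ts, against 0.167 CPM in WT. A unit over the SNO1 interval on the opposite strand held 7.43 ± 1.21 CPM in pup2-ts and 9.91 ± 0.392 CPM in rpn5-ts, against 9.76 ± 0.693 CPM in WT (SD, n = 4 each). Its counts stayed between 6.02 and 10.5 CPM while SNO1 ran from 0.978 to 19.4 CPM, so the counting kept the strands apart there. In WT it exceeded SNO1 in every library. It lies upstream of SNZ1 on the SNZ1 strand, at 14.5 ± 1.03 CPM per kb in WT, where SNZ1 stood at 32.3 CPM per kb, and how much of the WT level of SNZ1 is RNA that starts upstream was not tested. Opposite PDX3, a unit held 0.811 ± 0.321 CPM in pup2-ts and 1.39 ± 0.377 CPM in rpn5-ts, against 3.17 ± 1.67 CPM in WT (SD, n = 4 each). In a fit of all annotated features with edgeR, its log2 fold change was -1.79 ± 0.38 in pup2-ts (adjusted p = 0.00611) and -1.07 ± 0.36 in rpn5-ts (adjusted p = 0.0689).

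**Figure D4:**
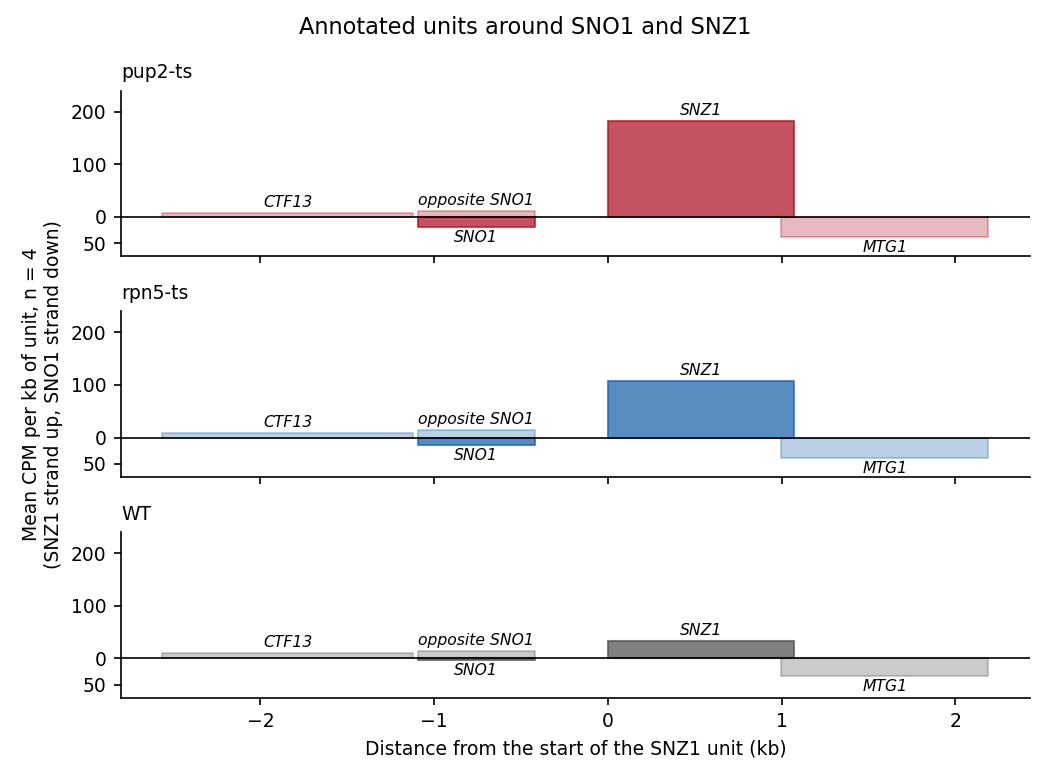
Annotated units around SNO1 and SNZ1 in pup2-ts, rpn5-ts and WT, drawn to scale by distance from the start of the SNZ1 unit (kb); the height is the mean CPM per kb (n = 4), upwards for the SNZ1 strand and downwards for the SNO1 strand. SNZ1 stands at 182, 107 and 32.3 CPM per kb from the top panel down, and the unit opposite SNO1 at 11, 14.7 and 14.5.

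Of the 2 nearest genes on each side of SNO1-SNZ1 (UTP15, CTF13, MTG1 and ATP25) and of PDX3 (EDS1, HMT1, CSG2 and SCO1), 0 passed edgeR's test in either mutant, where 15.4% of all genes passed in pup2-ts and 13.7% in rpn5-ts. At an unadjusted p under 0.05, 2 were lower in pup2-ts and 0 in rpn5-ts differed, and DESeq2 called 1 lower in pup2-ts and 0 in rpn5-ts. Of all 5560 genes, 1614 in pup2-ts and 1583 in rpn5-ts had an unadjusted p under 0.05 with edgeR. DESeq2 called 662 higher and 564 lower in pup2-ts, and 641 and 498 in rpn5-ts. These totals also apply to the lists below. CTF13, a kinetochore protein gene next to SNO1, was at -0.41 in pup2-ts (adjusted p = 0.12) and -0.08 in rpn5-ts (adjusted p = 0.766). MTG1, a mitochondrial GTPase gene that faces SNZ1, was at 0.21 in both (adjusted p = 0.22 and 0.217). In the fit of all annotated features, whose scaling differs, MTG1 passed in both (0.37 and 0.31, adjusted p = 0.0145 and 0.0425). With the replicate number as a block, UTP15, EDS1 and MTG1 were called in pup2-ts and UTP15, HMT1, MTG1 and SCO1 in rpn5-ts, at log2 fold changes from -0.66 to 0.45. The block called 38.5% of all genes in pup2-ts and 40.6% in rpn5-ts.

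Of the other 9 measured genes of vitamin B6 supply, 0 passed upwards and 2 downwards in pup2-ts, SNO2 and SNO3, with a median log2 fold change of 0.07, where 15.4% of all genes passed (8.72% upwards and 6.65% downwards) and the median of all genes was -0.02. One further gene was higher at an unadjusted p under 0.05, and 1 was higher with DESeq2. In rpn5-ts, SNZ2 and SNZ3 passed upwards and 0 downwards, with a median of 0.17, where 13.7% of all genes passed (8.27% upwards and 5.4% downwards) and their median was -0.02. At an unadjusted p under 0.05, 3 were higher and 0 lower in rpn5-ts, and DESeq2 called the same numbers as edgeR there, 2 and 0. The test of rpn5-ts against pup2-ts called 0 of the 9 with edgeR, with the block and with DESeq2, and 3 at an unadjusted p under 0.05.

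SNZ2 and SNZ3, ring-building subunits like Snz1, are 99.3% identical to each other in their coding bases, and SNO2 and SNO3 are 99.7% identical, so that counts within each of these pairs share reads to an unknown degree. SNZ1 is 71.8% and 72.5% identical to SNZ2 and SNZ3, and SNO1 is 65.1% identical to SNO2 and to SNO3, with no identical run longer than 14 bases, so that reads of the members can be told from those of the copies.

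SNZ2 stood at 6.39, 5.44, 8.42 and 7.78 CPM in pup2-ts replicates 1 to 4, at 6.25, 15.4, 16.3 and 14.9 CPM in rpn5-ts, and at 6.17, 6.84, 6.89 and 6.8 CPM in WT. SNZ3 stood at 4.18, 5.2, 6.86 and 5.96 CPM in pup2-ts, at 4.71, 15.2, 18.7 and 14.4 CPM in rpn5-ts, and at 4.95, 5.29, 5.26 and 4.85 CPM in WT. For both genes rpn5-ts replicates 2 to 4 were above all other libraries, and the library labelled rpn5-ts replicate 1 lay among those of pup2-ts and WT. The log2 fold changes in rpn5-ts were 0.98 ± 0.26 for SNZ2 (edgeR, adjusted p = 0.0304) and 1.38 ± 0.34 for SNZ3 (adjusted p = 0.0197). Without the library labelled rpn5-ts replicate 1 they were 1.22 ± 0.16 (adjusted p = 0.000746) and 1.66 ± 0.18 (adjusted p = 0.00025). Both calls were lost without rpn5-ts replicate 2, 3 or 4 or without WT replicate 4, and that of SNZ2 also without WT replicate 1, 2 or 3, with adjusted p from 0.0537 to 0.0966. In pup2-ts the fold changes were 0.07 ± 0.26 for SNZ2 (adjusted p = 0.9) and 0.13 ± 0.33 for SNZ3 (adjusted p = 0.852).

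The difference between the mutants depended on the same library. With all libraries, rpn5-ts minus pup2-ts was 0.91 ± 0.27 for SNZ2 and 1.25 ± 0.33 for SNZ3 on the log2 scale, and neither passed (edgeR, adjusted p = 0.625 and 0.526). On leaving out the library labelled rpn5-ts replicate 1, the differences were 1.15 ± 0.16 and 1.54 ± 0.18, and both passed (adjusted p = 0.00875 and 0.00399), where 0.827% of all genes did. In replicates 3 and 4 alone, which do not include it, they were 0.94 and 1.37 and passed as well (adjusted p = 9.31e-05 and 3.7e-05), where 1896 of 5560 genes did. SNZ1 and SNO1 were at -0.54 ± 0.47 and -0.17 ± 0.45 when that library was left out.

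SNO2, a glutaminase subunit like Sno1, was at 1.97, 2.27, 1.71 and 1.82 CPM in pup2-ts, 2.48, 2.32, 3.67 and 3.1 CPM in rpn5-ts, and 3.65, 3.96, 3.07 and 3.22 CPM in WT. All pup2-ts libraries were below WT, by a log2 fold change of -0.84 ± 0.19 (edgeR, adjusted p = 0.0116), where SNO1 was above WT in the same libraries. In rpn5-ts SNO2 was at -0.27 ± 0.19 (adjusted p = 0.377). SNO3, whose unit covers its coding interval only in part, was at 1.3 to 1.8 CPM in pup2-ts, against 2.06 to 2.79 CPM in WT, a log2 fold change of -0.61 ± 0.19 (adjusted p = 0.0498). That call was lost, at adjusted p from 0.06 to 0.143, without any 1 library other than the library labelled rpn5-ts replicate 1 and WT replicate 1. In rpn5-ts SNO3 was at -0.23 ± 0.19 (adjusted p = 0.448).

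TPN1, the pyridoxine permease of the plasma membrane, averaged 148 ± 13.2 CPM in pup2-ts and 140 ± 9.82 CPM in rpn5-ts, against 121 ± 7.23 CPM in WT (SD, n = 4 each). It did not pass in pup2-ts (0.29 ± 0.09, edgeR, adjusted p = 0.0583) or rpn5-ts (0.21 ± 0.09, adjusted p = 0.171), and it did with the replicate number as a block (adjusted p = 0.00591 and 0.0247) and, in pup2-ts, with DESeq2 (adjusted p = 0.0214). YBL036C, which encodes a pyridoxal phosphate binding protein, likewise passed with the block, at 0.22 in pup2-ts (adjusted p = 0.0147) and 0.17 in rpn5-ts (adjusted p = 0.0383), and in replicates 3 and 4 alone, at 0.27 and 0.26 (adjusted p = 0.00181 and 0.0026). With the block, the 9 genes thus gave 2 higher and 2 lower in pup2-ts, where 19.5% of all genes passed upwards and 19% downwards. In rpn5-ts it gave 4 higher and 0 lower, against 20.7% and 19.9% of all genes. BUD16 and BUD17, which encode putative pyridoxal kinases, were at 0.04 ± 0.24 and 0.13 ± 0.09 in pup2-ts and at 0.00 ± 0.24 and 0.07 ± 0.09 in rpn5-ts, and YPR127W, a putative pyridoxal reductase gene, at -0.05 ± 0.18 and 0.23 ± 0.18. None of these 3 passed, at adjusted p from 0.397 to 0.998. Between the replicate sets, BUD16 (-0.58, adjusted p = 6.76e-05), YBL036C (-0.34, adjusted p = 4.3e-05) and BUD17 (-0.17, adjusted p = 0.00688) were lower in replicates 3 and 4 than in replicates 1 and 2, and YPR127W (0.41, adjusted p = 0.000285) and TPN1 (0.14, adjusted p = 0.0307) were higher, where 63.1% of all genes passed.

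**Figure D5:**
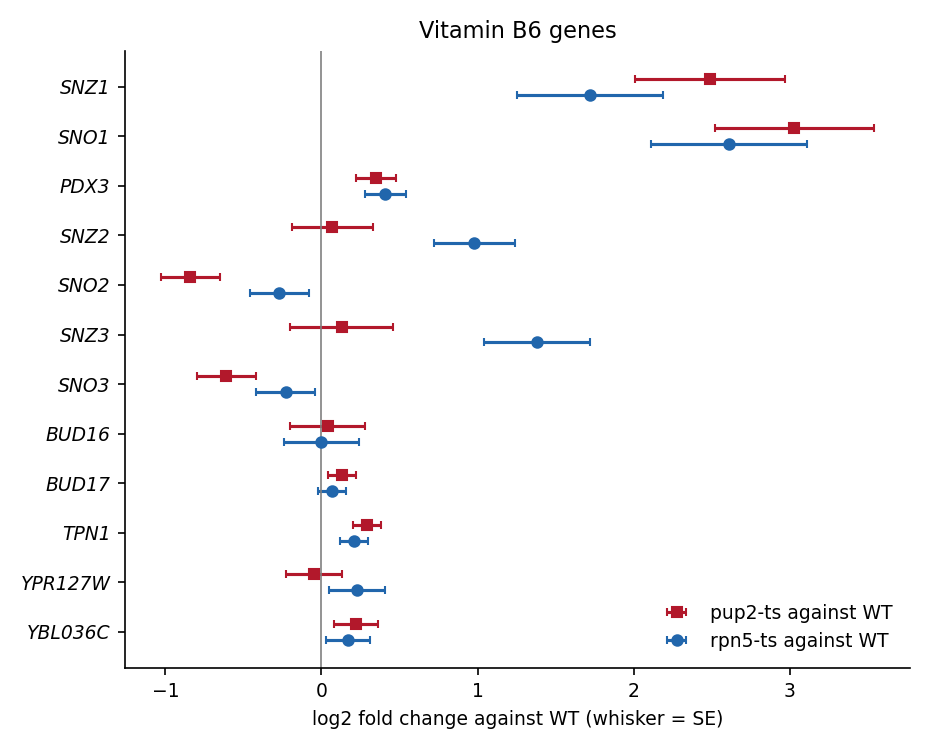
Fitted log2 fold change against WT of the 12 vitamin B6 genes in pup2-ts (squares) and rpn5-ts (circles), with SE as whiskers. SNZ1 and SNO1 lie far to the right in both mutants, SNZ2 and SNZ3 at 0.98 and 1.38 in rpn5-ts, and SNO2 and SNO3 to the left at -0.84 and -0.61 in pup2-ts.

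Thiamine genes were described because SNZ2 and SNZ3 lie beside genes of thiamine synthesis, whose pyrimidine part yeast builds from pyridoxal phosphate. Of 16 measured, 1 was higher and 3 were lower in pup2-ts (median -0.16), and 2 were higher and 1 lower in rpn5-ts (median 0.05), where 15.4% and 13.7% of all genes passed in either direction. The unit deposited for THI11, 1 of the 16, lies outside the coding interval and so does not measure that gene, and it passed in neither mutant (adjusted p = 0.677 and 0.937). THI12, a pyrimidine synthesis gene whose near-identical copies may share its reads, was at 1.8, 5.25, 4.94 and 4.81 CPM in rpn5-ts replicates 1 to 4, against 1.07 to 2 CPM in WT, and rose by 1.43 ± 0.32 (edgeR, adjusted p = 0.0126). THI13, another copy, did not pass at 1.05 ± 0.34 (adjusted p = 0.0617). It passed with the block (0.96, adjusted p = 0.0149), with DESeq2 (adjusted p = 0.0221) and when the library labelled rpn5-ts replicate 1 was omitted (1.29, adjusted p = 0.0104). THI12 therefore had the same library apart as SNZ2 and SNZ3. THI72, a transporter gene, rose by 0.50 ± 0.14 in pup2-ts (adjusted p = 0.0342) and 0.58 ± 0.14 in rpn5-ts (adjusted p = 0.0211), calls lost without WT replicate 3 or 4, a mutant's own replicate 4 and, in pup2-ts, pup2-ts replicate 3 or WT replicate 2 (THI72, adjusted p from 0.0584 to 0.11). THI3, a regulator of thiamine genes, fell by 0.38 ± 0.08 in pup2-ts (-0.38, adjusted p = 0.00937) and by 0.36 ± 0.08 in rpn5-ts (-0.36, adjusted p = 0.0143), and passed in neither with scaling on all features (-0.23 and -0.27, adjusted p = 0.124 and 0.0944). In pup2-ts the 4 calls became 2 without pup2-ts replicate 3 or WT replicate 2 and 1 without pup2-ts replicate 4. With the block the rpn5-ts calls were 4 higher and 5 lower, where 20.7% of all genes passed upwards and 19.9% downwards.

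Of 37 measured enzymes that use pyridoxal phosphate, 3 were higher and 2 lower in pup2-ts (median 0.05), and 6 were higher and 2 lower in rpn5-ts (median -0.03). Of all genes, 8.72% were higher and 6.65% lower in pup2-ts, and 8.27% and 5.4% in rpn5-ts. CHA1, the catabolic serine and threonine deaminase, was at 564 to 795 CPM in pup2-ts and 509 to 828 CPM in rpn5-ts, against 122 to 309 CPM in WT, and rose by 1.80 ± 0.28 and 1.68 ± 0.28 (edgeR, adjusted p = 0.00108 and 0.00238). DPL1, the sphingoid base phosphate lyase, rose by 0.66 ± 0.15 and 0.64 ± 0.15 (adjusted p = 0.0109 and 0.0147), the second call being lost without rpn5-ts replicate 4 (DPL1, adjusted p = 0.0601). BAT1, the mitochondrial branched-chain aminotransferase, was at 177 to 225 CPM in pup2-ts and 151 to 251 CPM in rpn5-ts, against 386 to 1069 CPM in WT (-1.82 ± 0.31 and -1.72 ± 0.31, adjusted p = 0.00215 and 0.00373). GAD1, glutamate decarboxylase, and BNA5, kynureninase, rose in rpn5-ts by 1.69 ± 0.34 (adjusted p = 0.00705) and 0.85 ± 0.19 (adjusted p = 0.0113), and were at 0.53 ± 0.33 (adjusted p = 0.329) and 0.16 ± 0.18 (adjusted p = 0.638) in pup2-ts. With the block the calls were 8 higher and 7 lower in pup2-ts and 10 higher and 7 lower in rpn5-ts. That fit called 19.5% of all genes upwards and 19% downwards in pup2-ts, and 20.7% and 19.9% in rpn5-ts. Without rpn5-ts replicate 4 the rpn5-ts calls were 4 higher and 1 lower.

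Gcn4 is the activator of amino acid synthesis known to act on SNZ1 and SNO1. Of 23 of its targets measured, 0 were higher and 1 was lower in pup2-ts (median 0.27), and 1 was higher and 1 lower in rpn5-ts (median 0.08), where 15.4% and 13.7% of all genes passed in either direction. At an unadjusted p under 0.05 the numbers were 5 higher and 3 lower in each mutant, and DESeq2 called 3 higher and 2 lower in pup2-ts and 2 of each in rpn5-ts. ILV2, acetolactate synthase, fell in both (-0.72 ± 0.20 and -0.85 ± 0.20, edgeR, adjusted p = 0.0274 and 0.0147), and LYS20, homocitrate synthase, rose in rpn5-ts by 0.76 ± 0.21 (adjusted p = 0.0314). The call of ILV2 in pup2-ts was lost without any 1 pup2-ts library or WT replicate 3 or 4 (adjusted p from 0.0574 to 0.0759) and with scaling on all features (-0.59, adjusted p = 0.0766). That of LYS20 was lost without rpn5-ts replicate 3 or 4 or WT replicate 1, 2 or 3 (adjusted p from 0.0502 to 0.0772). LYS20 was at 407, 190, 236 and 228 CPM in rpn5-ts replicates 1 to 4. Without the library labelled rpn5-ts replicate 1 its rise was smaller and still passed (0.47 ± 0.13, adjusted p = 0.0296). ARG1, argininosuccinate synthase, was at 286 to 396 CPM in pup2-ts, at 792, 261, 50.3 and 97.2 CPM in rpn5-ts and at 57.5 to 159 CPM in WT, and did not pass (1.90 ± 0.69 and 1.72 ± 0.69, adjusted p = 0.0877 and 0.122). In pup2-ts it passed with the block (2.09, adjusted p = 0.0105) and without rpn5-ts replicate 3 (adjusted p = 0.0437) or the library labelled rpn5-ts replicate 1 (0.0224 as adjusted p), and with DESeq2 it passed in both mutants (adjusted p = 0.0143 and 0.0326). Its highest library was the one labelled rpn5-ts replicate 1, where SNZ1 and SNO1 were lowest among the mutants. Without that library the calls were 4 higher and 3 lower in pup2-ts and 1 higher and 5 lower in rpn5-ts, and the rpn5-ts median was -0.17. In those fits 8.88% of all genes passed upwards and 6.8% downwards in pup2-ts, and 10.4% and 6.49% in rpn5-ts. With the block the calls were 6 higher and 2 lower in pup2-ts and 2 higher and 3 lower in rpn5-ts. Of all genes, 19.5% then passed upwards and 19% downwards in pup2-ts, and 20.7% and 19.9% in rpn5-ts. The call in pup2-ts was lost without any 1 pup2-ts library or WT replicate 3 or 4, 2 were called without rpn5-ts replicate 2 or 3, and in rpn5-ts 1 call was left without rpn5-ts replicate 3 or 4 or WT replicate 1, 2 or 3.

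Of the 4 regulators measured, 0 passed upwards and 1 downwards in each mutant (medians -0.20 in pup2-ts and -0.33 in rpn5-ts). At an unadjusted p under 0.05, 0 were higher and 1 was lower in pup2-ts and 0 higher and 3 lower in rpn5-ts, and DESeq2 called 0 higher and 1 lower in pup2-ts and 0 higher and 2 lower in rpn5-ts. GCN4 was at 1523 to 2236 CPM in pup2-ts and 1265 to 2046 CPM in rpn5-ts, against 1754 to 2344 CPM in WT (-0.12 ± 0.19 and -0.42 ± 0.19, edgeR, adjusted p = 0.73 and 0.169). In rpn5-ts it passed as lower with the block (-0.44, adjusted p = 0.0296) and when the library labelled rpn5-ts replicate 1 was omitted (-0.59, adjusted p = 0.0428). Gcn4 is known to be controlled mainly in its translation, which these RNA levels do not show. GCN2, the kinase upstream of Gcn4, fell in pup2-ts (-0.31 ± 0.07, adjusted p = 0.0129) and in rpn5-ts (-0.24 ± 0.07, adjusted p = 0.0453), and the second call was lost, at adjusted p from 0.0572 to 0.109, when any 1 library was left out. In a fit scaled on all annotated features GCN2 passed in neither mutant (-0.16 and -0.15, adjusted p = 0.226 and 0.28). That scaling moved the median of all genes by 0.15 in pup2-ts and 0.09 in rpn5-ts on the log2 scale. BAS1, an activator of purine and histidine genes, was at -0.27 ± 0.17 in pup2-ts (adjusted p = 0.33) and -0.51 ± 0.17 in rpn5-ts (adjusted p = 0.0649), and its partner PHO2 at -0.03 ± 0.18 and 0.10 ± 0.18 (adjusted p = 0.947 and 0.734). BAS1 passed as lower in rpn5-ts with the block (-0.48, adjusted p = 0.0106), with DESeq2 (adjusted p = 0.0219), without WT replicate 3 (-0.60, adjusted p = 0.043) and when the library labelled rpn5-ts replicate 1 was omitted (-0.58, adjusted p = 0.0499).

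Genes known for stationary phase or stress gave 2 higher and 0 lower of 11 measured in pup2-ts (median -0.11), and 3 higher and 0 lower in rpn5-ts (median 0.74), where 15.4% and 13.7% of all genes passed in either direction. WT replicate 1 stood apart for several of them, named here after their values were seen. HSP12, a membrane protein gene of the stress response, was at 21.2 to 57.7 CPM in pup2-ts and 49.7 to 111 CPM in rpn5-ts, against 229 CPM in WT replicate 1 and 4.7 to 21.7 CPM in the other WT libraries. HSP26, a small heat shock protein gene, was at 19.3 to 24.3 CPM in pup2-ts and 28.4 to 43.9 CPM in rpn5-ts, against 108 CPM in WT replicate 1 and 7.3 to 14 CPM in the others. SPG4 was at 0.746 to 3.13 CPM in pup2-ts and 2.04 to 5.11 CPM in rpn5-ts, against 10.2 CPM in WT replicate 1 and 0.745 to 2.63 CPM in the others. HSP12 and HSP26 were at log2 fold changes of -1.02 and -0.72 in pup2-ts with all libraries, at 0.01 and 0.03 with the block, and at 1.40 and 1.14 without WT replicate 1 (adjusted p = 0.102 and 0.0108). In rpn5-ts they were at 0.09 and 0.05 with all libraries and at 2.52 and 1.91 without WT replicate 1 (adjusted p = 0.0139 and 0.000752). The medians of the list without WT replicate 1 were 0.32 in pup2-ts and 1.40 in rpn5-ts. At an unadjusted p under 0.05 the numbers were 3 higher and 1 lower in pup2-ts and 6 higher and 0 lower in rpn5-ts, and DESeq2 called 2 higher and 1 lower in pup2-ts and 5 higher and 0 lower in rpn5-ts. UBI4, the polyubiquitin gene, was at 641 to 939 CPM in pup2-ts and 586 to 907 CPM in rpn5-ts, against 152 to 415 CPM in WT, and rose by 1.72 ± 0.31 and 1.75 ± 0.31 (edgeR, adjusted p = 0.00346 and 0.00384). SOL4, a phosphogluconolactonase gene, rose by 1.02 ± 0.27 and 1.53 ± 0.27 (adjusted p = 0.0248 and 0.00366), the pup2-ts call being lost without pup2-ts replicate 3 or 4 or WT replicate 2 (SOL4, adjusted p from 0.056 to 0.0719). SIP18, a gene of desiccation tolerance, rose in rpn5-ts by 1.21 ± 0.36 (adjusted p = 0.0474), a call that 10 of the 12 left-out libraries ended (adjusted p from 0.0508 to 0.14), the exceptions being WT replicate 1 and the library labelled rpn5-ts replicate 1. SPG5 did not pass in rpn5-ts at 0.74 ± 0.23 (adjusted p = 0.0553). It passed with the block (0.73, adjusted p = 0.0128), with DESeq2 (adjusted p = 0.0156), without WT replicate 1 (0.89, adjusted p = 0.0386) and when the library labelled rpn5-ts replicate 1 was omitted (0.88, adjusted p = 0.022), a fit that called 5 of the list higher. In pup2-ts 1 was called without pup2-ts replicate 3 or 4 or WT replicate 2. In rpn5-ts 7 were called higher without WT replicate 1, where 501 of 5560 genes passed upwards and 265 downwards. With the block 3 were higher and 1 lower in pup2-ts and 5 higher in rpn5-ts. That fit called 19.5% of all genes upwards and 19% downwards in pup2-ts, and 20.7% and 19.9% in rpn5-ts.

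The genes whose profile over the 12 libraries came closest to that of SNZ1 were UBC5, FPT1, YHR138C, HXT9 (a transporter gene with near-identical copies, which may share its reads), ECM29 and DDI1, by the root-mean-square difference of log2 CPM centred on each gene's mean. Their differences ran from 0.401 (UBC5) to 0.458 (DDI1), where SNZ1 itself varied by 1.147 about its mean. SNO1 came 14th of 5559 genes by likeness to SNZ1, at 0.544, and PDX3 came 1324th, at 1.054. Seen from SNO1, MAG1 was closest at 0.396 and SNZ1 came 2nd at 0.544, followed by YHR138C and UBI4 (both 0.594), DDI1 (0.61), RIM4 (0.62) and FPT1 (0.623), where SNO1 itself varied by 1.47. PDX3 came 1063rd, at 1.358. UBC5, a ubiquitin-conjugating enzyme gene, was at 36.3, 39.6, 81.6 and 85.4 CPM in pup2-ts, 40.7, 59.3, 77.1 and 72.4 CPM in rpn5-ts, and 22.4, 16.2, 15.3 and 16.4 CPM in WT. MAG1, a DNA glycosylase gene, was at 93.1, 104, 154 and 147 CPM in pup2-ts, 90.8, 119, 105 and 100 CPM in rpn5-ts, and 25.5, 17.5, 11.3 and 13.8 CPM in WT. Both had the upper values of pup2-ts in replicates 3 and 4 and the highest WT value in WT replicate 1, as SNZ1 and SNO1 did. Since UBC5 and MAG1 were picked for a close profile, this follows from the choice and is no separate result. These 12 libraries share their sets and the WT group, and the likeness is given as a description.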

How the data were processed

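Polyadenylated RNA was made into libraries with a KAPA mRNA HyperPrep kit after hot acid phenol extraction and DNAse treatment, per the labels' protocols. The deposited table holds raw counts for 12768 features, made with STAR 2.5.2b and featureCounts of Subread 1.5.1 on build sacCer3, per the submitters' processing notes, which do not give the handling of reads with several places in the genome. Features were matched by locus tag to R64, which has 6021 protein-coding genes, and 5585 were found; the deposited unit length was used for CPM per kb. The members, lists, motifs, tests and named genes were chosen with earlier results of these data known.

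The deposited counts went into edgeR 4.0.16 (R 4.3.3), filtered by filterByExpr and scaled by TMM, with 1 robust quasi-likelihood fit of all 12 libraries in 3 groups and two-sided F tests. P-values were adjusted by Benjamini-Hochberg over 5560 genes, with a threshold of 0.05, and SE was obtained by dividing each log2 fold change by the root of its F. A fit with a mean for each group and replicate set gave the 9 tests of members. Motifs were counted in the R64 genome sequence. Named were the members, all vitamin B6 genes and regulators, up to 4 genes with the lowest adjusted p for each other list and mutant, the 2 nearest genes on each side, and the 6 nearest profiles each, of log2 CPM with a prior count of 2. THI2, THI5, SPG1 and ADH2 were not analysed here. HIS5, ARG8, ILV1 and TRP5 stand in both the pyridoxal phosphate enzyme list and the Gcn4 list.

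Deviations of same-numbered libraries from their group means correlated at 0.181 to 0.827 in all 12 pairs, above the bound of 0.1. Same-numbered libraries also share a replicate set, and 63.1% of genes differed between the sets. The correlations therefore cannot tell pairing by number from the set, and no pairing is concluded. Of the 12 libraries, 5 were closest to their own number. The main fit used neither the number nor the set. A block for the number was tried, as were relative log expression factors, DESeq2 1.42.0, no filter, the set as a factor, each set alone, all features, and each library left out. Leaving the library labelled rpn5-ts replicate 1 out of the blocked fit was added after the data were seen. No 2 replicates were copies by a chi-square test (lowest chi-square per degree of freedom 7.287). Totals of 18.5 to 60.6 (in 1e6 counts) limit low genes such as SNO1 in WT. Tables and figures used Python 3.11.15, pandas 2.3.3 and matplotlib 3.10.9.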

Additional observations from a re-analysis of the deposited data

Results flagged for a closer look

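Single libraries stood apart from the other 3 of their group in 16 of 189 groups by Dixon's test at the 95% level. Chance gives about 1 in 20 for genes picked without regard to their values. Many of the genes checked were named for their values in these same libraries, so the count is not set against that share. In WT replicate 1, SNO1 was at 3 CPM (others 0.978 to 1.26), SNZ2 at 6.17 (others 6.8 to 6.89), UBC5 at 22.4 (others 15.3 to 16.4), ECM29 at 147 (others 86.6 to 95.7), DDI1 at 69.2 (others 46.9 to 49.7) and RIM4 at 10.7 (others 2.11 to 2.75). In the library labelled rpn5-ts replicate 1, LYS2 was at 213 CPM (others 0 to 0.181), MET17 at 249 (others 0 to 0.0906), SNZ2 at 6.25 (others 14.9 to 16.3), THI12 at 1.8 (others 4.81 to 5.25), HXT9 at 3.71 (others 6.09 to 6.3) and HIS5 at 150 (others 91.3 to 98.8). HIS3 was at 67.4 CPM in rpn5-ts replicate 2 (others 103 to 105), TPN1 at 154 in rpn5-ts replicate 4 (others 133 to 137), PUP2 at 220 in pup2-ts replicate 1 (others 260 to 264) and BIO3 at 6.89 in pup2-ts replicate 3 (others 8.9 to 9.29).

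The log2 effect of pup2-ts against WT differed between replicates 3 and 4 and replicates 1 and 2 for 10 of the named genes, by edgeR's test of the difference. It was larger in replicates 3 and 4 by 2.12 for SNZ1, 1.59 for UBI4, 1.42 for UBC5, 1.38 for MAG1, 1.21 for ECM29, 0.93 for DDI1, 0.79 for SCO1 and 0.72 for THI72. BAT1 had -0.91 and BNA5 had -0.86 in the same test. UBC5, ECM29, DDI1, MAG1 and UBI4 were named for a profile close to that of SNZ1 or SNO1, so their differences follow from that choice and are given as values only. Of all 5560 genes, 9.41% passed the test, and the number of named genes is not set against it.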

How the results depend on the processing

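SNZ1, SNO1 and PDX3 were above WT in both mutants under every alternative run. SNZ1 and SNO1 were chosen for this rise, and the runs reuse libraries in which none of the 3 overlapped WT. The shared direction is therefore a description and no added support. Against the 855 genes called in pup2-ts, 2142 were called with the replicate block, 2371 with the set as a factor and 3651 in replicates 3 and 4 alone. Against the 760 in rpn5-ts, the numbers were 2256, 2474 and 3531, and 2306 with the block when the library labelled rpn5-ts replicate 1 was left out. Between the mutants (2 calls), DESeq2 gave 27, the block 7, the set as a factor 32, replicates 3 and 4 alone 1896, replicates 1 and 2 alone 1, and the block without that library 371. The fit of all features called 2432 in pup2-ts, 1709 in rpn5-ts and 4 between the mutants. These are counts over all annotated features, coding or not, and are not comparable with the counts of genes. For the effect differing between sets, DESeq2 called 863 in pup2-ts (main 523) and 380 in rpn5-ts (main 93), with SNO1 at 2.26 and PDX3 at -0.61. Members in replicates 3 and 4 alone were at 3.27, 4.10 and 0.17 (SNZ1, SNO1, PDX3) in pup2-ts and in replicates 1 and 2 alone at 1.15, 1.88 and 0.57; PDX3 in rpn5-ts was at 0.15 and 0.74, and rpn5-ts minus pup2-ts in replicates 1 and 2 alone at 0.18 (SNZ1) and 0.35 (SNO1). With 1 library left out, calls ranged from 528 to 872 in pup2-ts, 446 to 938 in rpn5-ts and 2 to 46 between mutants, the 46 without the library labelled rpn5-ts replicate 1. Calls in pup2-ts fell to 528 without pup2-ts replicate 3 or 4, and in rpn5-ts to 475, 446 and 472 without rpn5-ts replicates 2, 3 and 4 and 489 without WT replicate 4. Calls of the differing pup2-ts effect ranged from 34 (without pup2-ts replicate 3) to 1800 (without WT replicate 2) and of the rpn5-ts effect from 3 (without rpn5-ts replicate 4) to 1299 (without WT replicate 2). Member differences then ranged from 1.74 to 2.43 (SNZ1), 1.48 to 2.71 (SNO1) and -0.61 to -0.22 (PDX3) in pup2-ts, and from 0.32 to 1.46, 0.23 to 2.14 and -0.78 to -0.40 in rpn5-ts. Between the sets over all groups they ranged from 0.57 to 1.0 (SNZ1), from -0.06 to 0.52 (SNO1) and from -0.01 to 0.12 (PDX3). SNO1 turned negative without pup2-ts replicate 1 (-0.06), pup2-ts replicate 2 (-0.04) or the library labelled rpn5-ts replicate 1 (-0.02), and PDX3 without WT replicate 1 (-0.01). Among genes named with a test, the replicate block changed no call other than those given beside them, and the cause of these changes was not tested. Depth limits SNO1 in WT, with 21 to 106 counts a library.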
